A study of Mus musculus with 6 samples.

Results

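The cytosolic ribosomal protein genes encode the proteins of the large (Rpl) and small (Rps) subunits of the ribosome outside mitochondria. They were chosen by gene symbol: Rpl or Rps followed by a number and at most 1 letter and 1 digit, and Rplp0, Rplp1, Rplp2 and Rpsa, with pseudogenes (symbols with -ps) and the S6 kinases (Rps6k) left out. This gave 80 of the 14824 genes listed, 48 of the large and 32 of the small subunit. A few symbols that the rule does not match, such as Fau and Rpl36al, are described beside them.

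Bulk RNA-seq was performed on total RNA of primary somatosensory (S1) cortex of WT mice of strain C57B6 at postnatal day 21, in 3 non-stimulated libraries (NS, labelled NW control with treatment none) and 3 libraries after whisker stimulation (WS). In this paradigm the right whiskers were brushed for 15 min daily for 8 days from postnatal day 14, and cortex was collected 90 min after the last session. The mice were male, and in the study's description of the paradigm the NS control is the barrel cortex of the side that was not stimulated, in the same mice. The libraries carry replicate numbers 1 to 3 in both groups, and the study's legends count the replicates as mice, so the spread within a group is between mice. The sources do not name which NS and WS libraries come from the same mouse. Samples were accepted at an RNA integrity number above 2, a low limit, and the value of each sample is not given in the sources used here.

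Ribosomal proteins are needed in nearly equal numbers, since each ribosome holds mostly 1 copy of each. In mammals many of their mRNAs begin with a C followed by a run of pyrimidines, the 5′ terminal oligopyrimidine (TOP) tract, through which mTOR and the RNA-binding protein LARP1 control their translation more than their mRNA level. In neurons part of this mRNA is carried into axons and dendrites. The family is also known for its many processed pseudogenes, which are intronless copies of the mRNAs elsewhere in the genome, so that short reads of a ribosomal protein mRNA often match more than 1 gene.

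Of a pair of sequence features described here, the first bears on the counts. The first is the near-identity of copies, shown for Rpl34 and its pseudogene Rpl34-ps1 because their counts moved in opposite directions between libraries (below). On GRCm38, with the GENCODE M21 annotation, Rpl34 lies on chromosome 3 (chr3:130726831-130730398, minus strand, protein coding) and Rpl34-ps1 on chromosome 6 (chr6:71124610-71124963, plus strand, a processed pseudogene of 1 exon). All 354 bases of Rpl34-ps1 aligned with exonic bases 91 to 444 of the Rpl34 transcript with 0 gaps and 2 mismatches, T132C and C318G (Rpl34 base first, positions counted from 1 at the 5′ end of Rpl34-ps1). The 30 bases around each mismatch read as follows, with the differing base in capitals.
Rpl34 around T132C: gaaagcacctaaatcTgcatgtggcgtgtg
Rpl34-ps1 around T132C: gaaagcacctaaatcCgcatgtggcgtgtg
Rpl34 around C318G: aatcgttgtgaaagtCttgaaggcacaagc
Rpl34-ps1 around C318G: aatcgttgtgaaagtGttgaaggcacaagc

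Such sharing was common. Cut into windows of 50 bases, the representative transcripts of the 80 members had a median of 52.6% of their windows also in the transcripts of another gene, and 44 of 80 members had over 50%. The highest share was 98.6%, in Rps27, where the windows were shared with Rps27rt. Only 4 members shared over 20% of their windows with a gene outside the family that has counts of its own in these data, namely Rpl34 with Rpl34-ps1, Rpl37 with Rpl37rt, Rpl31 with Rpl31-ps12 and Rplp2 with Wdr89. How reads that match several genes were counted, and whether strand was used, is not given in the sources used here. The levels of single members are therefore uncertain where windows are shared, and so are those of the 14 members that overlap another listed gene in the annotation.

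The second feature is the TOP tract, shown because it defines the family's shared translational control. In the RefSeq promoter table (GRCm38.p6), 60 of the 80 members had an entry. A C within 5 bases of the annotated start, followed by at least 4 further C or T bases on the gene's strand, was found in 29 of these 60 members (48.3%), against 21.2% of the 27025 genes in the table and 23.8% of the 11632 of them that are listed in these data. A match describes these letters only, and no match says nothing of the true start site. The windows below run from 10 bases before to 20 after the annotated start, with the tract in capitals. They show a long tract (Rpl15), those of 2 members whose WS and NS values are given below (Rpl14 and Rps6), and Rpl13, which had none at this start.
Rpl15, chr14:18270967-18270996, minus strand: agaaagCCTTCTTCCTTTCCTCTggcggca
Rpl14, chr9:120571507-120571536, plus strand: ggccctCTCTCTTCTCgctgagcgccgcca
Rps6, chr4:86857348-86857377, minus strand: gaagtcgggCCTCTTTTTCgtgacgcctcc
Rpl13, chr8:123102340-123102369, plus strand: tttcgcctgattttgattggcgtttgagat

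The 6 libraries held 15660395 to 17276168 counts over the listed genes. Levels are in CPM, that is, counts divided by the TMM-normalized library size of edgeR and multiplied to a common scale of 1e6, and the spread between replicates was 10.1% as a biological coefficient of variation. Neuronal markers (Rbfox3, Snap25 and Syt1) were present in every library, with a summed level of 4487 to 4977 CPM. Markers of other tissue differed between libraries: 3 choroid plexus markers summed to 6.93 CPM in WS replicate 1 and 62.2 in WS replicate 2, and 4 striatal markers to 181 CPM in WS replicate 3 and 408 in WS replicate 2. The 3 blood markers (Hba-a1, Hbb-bs and Alas2) summed to 346, 286 and 548 CPM in NS replicates 1 to 3 and to 422, 343 and 454 in WS replicates 1 to 3. The low sum in NS replicate 2 came from Hbb-bs (95.6 CPM), while Hba-a1 and Alas2 were lowest in NS replicate 1 and WS replicate 1. The 4 oligodendrocyte markers summed to 6479 and 7684 CPM in replicate 1 of NS and WS, and to 8871 to 10434 CPM in the other 4 libraries. Between the groups, 1 of 4 endothelial markers had an unadjusted p under 0.05 in edgeR, and 0 of the other cell type markers did. This marker was Pecam1, higher in WS, with an adjusted p of 0.81 (edgeR quasi-likelihood, Benjamini-Hochberg). Of all genes tested, 0.866% were higher and 0.327% lower in WS at that unadjusted p. The part of these marker differences in the ribosomal values was not tested. In bulk RNA, fewer cells of a type and less RNA per cell cannot be told apart.

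The ribosomal protein genes were well covered, with a mean of at least 104 counts in each of the 80. Per kilobase of transcript, the median level of a member was 190 CPM, and 63 of the 80 lay between 100 and 400. The medians of the large and small subunit genes were 189 and 190 CPM per kilobase. The highest level per length was that of Rplp1, an acidic protein of the ribosomal stalk that recruits elongation factors. It stood at 711, 571 and 710 CPM per kilobase in NS replicates 1 to 3 and at 895, 642 and 579 in WS replicates 1 to 3. Next were Rpl41, which encodes a very short basic peptide of the large subunit (559 to 725 over the 6 libraries), and Rps15, of the small subunit head (516 to 659). The ranges of these 3 genes overlapped, so their order is not set beyond the spread between libraries.

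At the other end, 6 members lay under 50 CPM per kilobase. By the mean over the 6 libraries, the lowest 3 were Rps27l, a paralog of Rps27 that is known as a p53 target (10.6 to 14.6 CPM per kilobase), Rps6, the substrate of the S6 kinases (10.7 to 15.4), and Rpl7l1, a paralog of Rpl7 linked to ribosome assembly (13.4 to 15.1), and their ranges overlapped. Of the Rps6 windows, 84.6% were shared with the pseudogene Rps6-ps4, which has no counts in these data, and how far this set the low Rps6 level was not tested. Rps20 and Rps15a also fell into this group. The annotated transcripts of Rpl7l1, Rps20 and Rps15a, of 2606, 3706 and 5130 bases against a median of 768, lower a value per length. The places of Rps20 and Rps15a in this group, and that of Rpl7l1 among the lowest 3, thus depend on the annotated length. The sixth was Rpl22l1, a paralog of Rpl22. Rpl29 is not in this group by its mean (68.6 CPM per kilobase), which rests on replicate 1 of both groups; in the other 4 libraries it stood lower, at 5.01 to 10.9 CPM per kilobase.

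**Figure D1:**
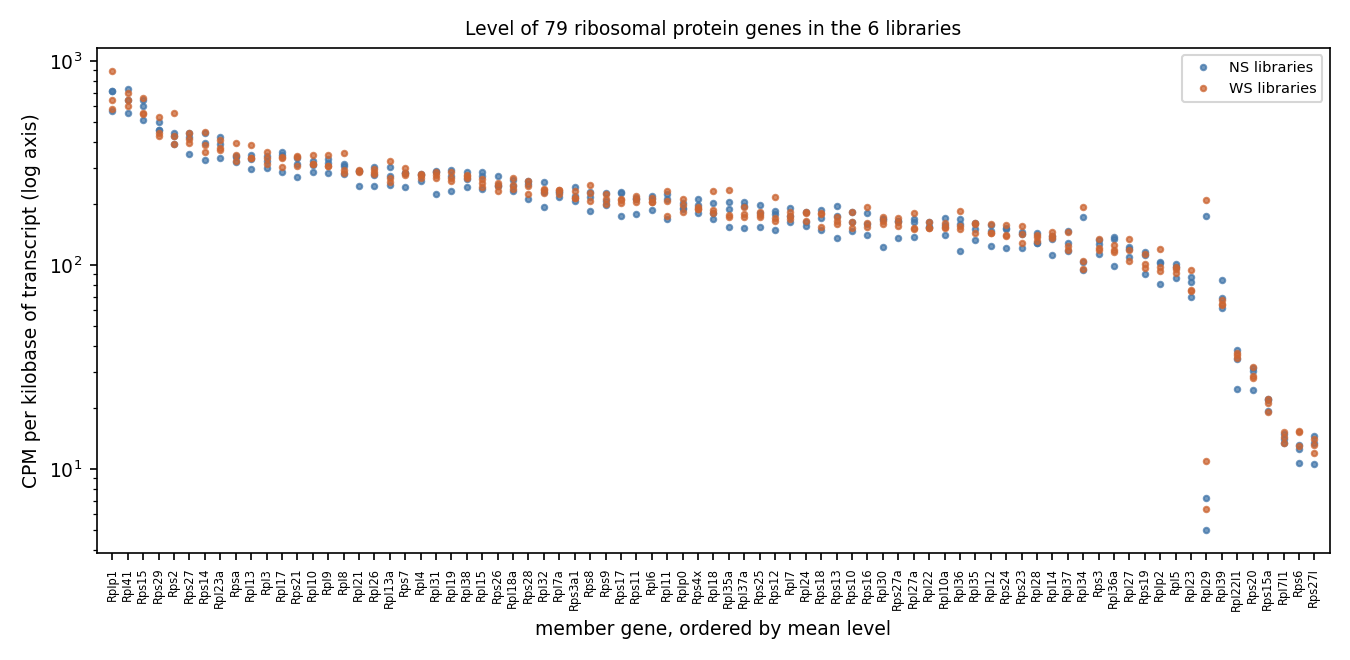
Level of 79 of the 80 ribosomal protein genes in CPM per kilobase of transcript on a log axis, ordered by mean level, with 1 point for each library (blue, 3 NS; orange, 3 WS). Points of a gene lie close together except for Rpl29, whose 6 points split into 2 high and 4 low, and Rpl34, with 2 points above the other 4.

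Paralogs were lower than their partners. Rpl22l1 stood at 24.6 to 38.4 CPM per kilobase and Rpl22 at 152 to 163. Rpl22 had the smallest ratio of highest to lowest library of any member, 1.07. Rps27l (10.6 to 14.6) was below Rps27 (352 to 444), and Rpl7l1 (13.4 to 15.1) below Rpl7 (163 to 189), without overlap in either pair. The paralogs Rpl3l, Rpl10l, Rpl39l and Rps4l were not analysed here. Their partners Rpl3 (300 to 359), Rpl10 (285 to 346), Rpl39 (61.7 to 84.4) and Rps4x (179 to 210 CPM per kilobase) each had overlapping NS and WS values.

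Whether whisker stimulation was followed by a different level of ribosomal protein mRNA was asked by comparing the 3 WS with the 3 NS libraries. No member passed the test. In edgeR's quasi-likelihood test, adjusted by Benjamini-Hochberg over 13747 genes, 0 of the 80 members had an adjusted p under 0.05, where 5 genes in all did (0.0364%). DESeq2 also called 0 members. At an unadjusted p under 0.05, edgeR gave 0 members higher in WS and 0 lower (0.866% and 0.327% of all genes tested), and DESeq2 gave 0 as well. At these shares of all genes, counts of 0 do not set a group of 80 members apart. In 0 members did the 3 WS values lie wholly above the 3 NS values, and in 0 wholly below, against 3.11% and 3.16% of all genes tested. The lowest adjusted p of a member was 0.9998 (edgeR quasi-likelihood, Benjamini-Hochberg).

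The fitted changes were small. Member log2 fold changes (WS minus NS) ran from -0.14 to 0.28, and 78 of 80 lay between the 5th and 95th percentiles of all tested genes (-0.17 and 0.26). The median member was at 0.03, against 0.01 over all genes tested, and a single member carried a median standard error of 0.09. The 48 large subunit genes had a median of 0.04 and the 32 small subunit genes one of 0.03. By sign alone, 61 members were above 0 and 19 below, where 53.0% of all tested genes were above 0. This split rested on single libraries: without NS replicate 2, 20 of the 80 were above 0 and the median was -0.03, and without WS replicate 1, 32 were above 0 and the median was -0.01.

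**Figure D2:**
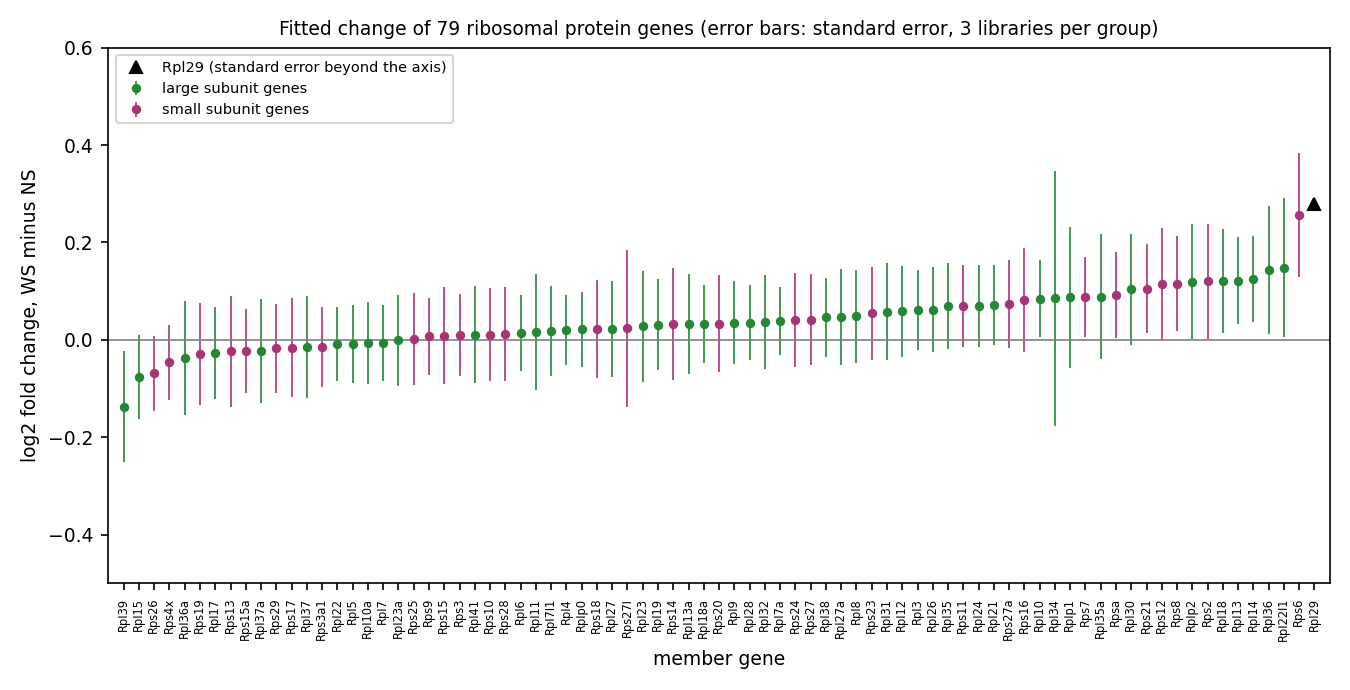
Fitted log2 fold change (WS minus NS) of 79 of the 80 members, in ascending order, with bars of 1 standard error from 3 libraries per group (green, large subunit; purple, small subunit; black triangle, Rpl29, whose standard error of 1.22 exceeds the axis). Values run from -0.14 in Rpl39 to 0.28 in Rpl29, and 0 of them passed the test.

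The smallest p among members higher in WS was that of Rps6, whose phosphorylation by the S6 kinases is a common readout of neuronal mTOR activity. That readout is of the protein, and RNA counts do not measure it. Some Rps6 values were not whole and 84.6% of its windows were shared with Rps6-ps4, so its counts are estimates. Its level was 9.39, 11.0 and 11.6 CPM in NS replicates 1 to 3 and 11.4, 13.5 and 13.3 CPM in WS replicates 1 to 3. Only WS replicate 1 fell inside the NS range, and each WS value was above the NS value of the same number. The log2 fold change was 0.26 (SE 0.13), with an adjusted p of 0.9998 (edgeR quasi-likelihood, Benjamini-Hochberg). Blocking on the replicate number gave 0.26 (SE 0.13), with an adjusted p of 0.9999 in the same test. Next came Rpl14 and Rpl13, both of the large subunit. Rpl14 stood at 135, 113 and 139 CPM in NS and 146, 138 and 140 CPM in WS (log2 fold change 0.12, SE 0.09). Rpl13 stood at 258, 230 and 270 CPM in NS and 303, 260 and 261 CPM in WS (log2 fold change 0.12, SE 0.09). In both, NS replicate 2 was the lowest of the 6 libraries and the groups overlapped. The log2 fold change of Rpl14 was 0.039 without NS replicate 2, and that of Rpl13 was 0.044 without WS replicate 1.

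In the other direction the smallest p was that of Rpl39, a short protein lining the exit tunnel of the nascent chain. It stood at 42.4, 37.8 and 51.7 CPM in NS and 41.4, 39.2 and 39.3 CPM in WS (log2 fold change -0.14, SE 0.11). All 3 WS values lay within the NS range, and without NS replicate 3 the log2 fold change was -0.0040. Rps26, which sits near the mRNA exit of the small subunit, had a log2 fold change of -0.07 (SE 0.08), with NS at 173 ± 10.8 CPM and WS at 165 ± 7.03 CPM (mean ± SD, n = 3 per group). Rpl15 of the large subunit had one of -0.08 (SE 0.09), with NS at 213 ± 21.1 CPM and WS at 202 ± 9.14 CPM. The log2 fold change of Rps26 was -0.016 without NS replicate 3, and that of Rpl15 was -0.018 without NS replicate 1.

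Members with roles beyond the core of the subunits did not pass the test either. The stalk protein genes gave log2 fold changes of 0.02 for Rplp0 (SE 0.08), 0.09 for Rplp1 (SE 0.14) and 0.12 for Rplp2 (SE 0.12). Rplp1 was highest in WS replicate 1, at 447 CPM against 285 to 355 in the others, and Rplp2 was highest there as well, at 116 CPM against 78.0 to 99.4. Rpl5 and Rpl11, which bind MDM2 together with 5S rRNA when ribosome assembly fails, had log2 fold changes of -0.01 (SE 0.08) and 0.02 (SE 0.12). Rpl5 ranged from 176 to 208 CPM in NS and 187 to 199 in WS, and Rpl11 from 140 to 186 in NS and 145 to 191 in WS. Among 9 members mutated in Diamond-Blackfan anaemia, an inherited failure of red cell production, 5 were above 0 and 4 below (53.0% of all tested genes were above 0), with a median log2 fold change of 0.01. At an unadjusted p under 0.05 in edgeR there were 0, which at the shares of all genes given above does not set a list of 9 apart.

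The members moved together from library to library. The counts of the 80 summed to 1.38%, 1.21% and 1.45% of all counts in NS replicates 1 to 3, and to 1.46%, 1.33% and 1.34% in WS replicates 1 to 3. The group means were 1.35% ± 0.124 (NS) and 1.38% ± 0.0692 (WS; mean ± SD, n = 3 per group), a difference of 0.0326 percentage points, which is less than the SD of either group. NS replicate 2 was lowest and WS replicate 1 highest. NS replicate 2 was also lowest in 3 of 4 endothelial markers (summed level 103 CPM, against 104 to 146 in the other libraries), in 1 of 3 blood markers and in 0 of 4 microglia markers, although their sum was lowest there, at 241 CPM against 246 to 263. Of the other marker lists, NS replicate 2 was lowest in 1 of 4 astrocyte markers. It was lowest in 0 of 4 excitatory neuron, 0 of 3 neuron, 0 of 4 oligodendrocyte, 0 of 4 striatal and 0 of 3 choroid plexus markers. The part of any of these cells in the ribosomal values was not tested. Without NS replicate 2 the difference (WS minus NS) was -0.0365 percentage points.

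The same libraries stood out member by member. NS replicate 2 was the lowest of the 6 libraries in 69 of 80 members and the highest in 0, while it was lowest in 13.3% of all genes tested. WS replicate 1 was the highest in 40 members and NS replicate 3 in 29, where they were highest in 26.4% and 13.1% of all genes tested. As a deviation from the gene's mean over the 6 libraries on the log2(CPM + 0.5) scale, the median member stood at 0.02, -0.19 and 0.09 in NS replicates 1 to 3 and at 0.11, -0.03 and -0.02 in WS replicates 1 to 3. Large and small subunit genes were alike in NS replicate 2, with medians of -0.18 and -0.20. Between libraries of the same number, 60 members were higher in WS than NS for replicate 1 and 76 for replicate 2, but 8 for replicate 3. Over pairs of the 77 members that did not stray (below), the median Pearson's r across the 6 libraries was 0.75, a description over few libraries. Taking off each library's median lowered the median SD of a member's log2 CPM from 0.126 to 0.0717.

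**Figure D3:**
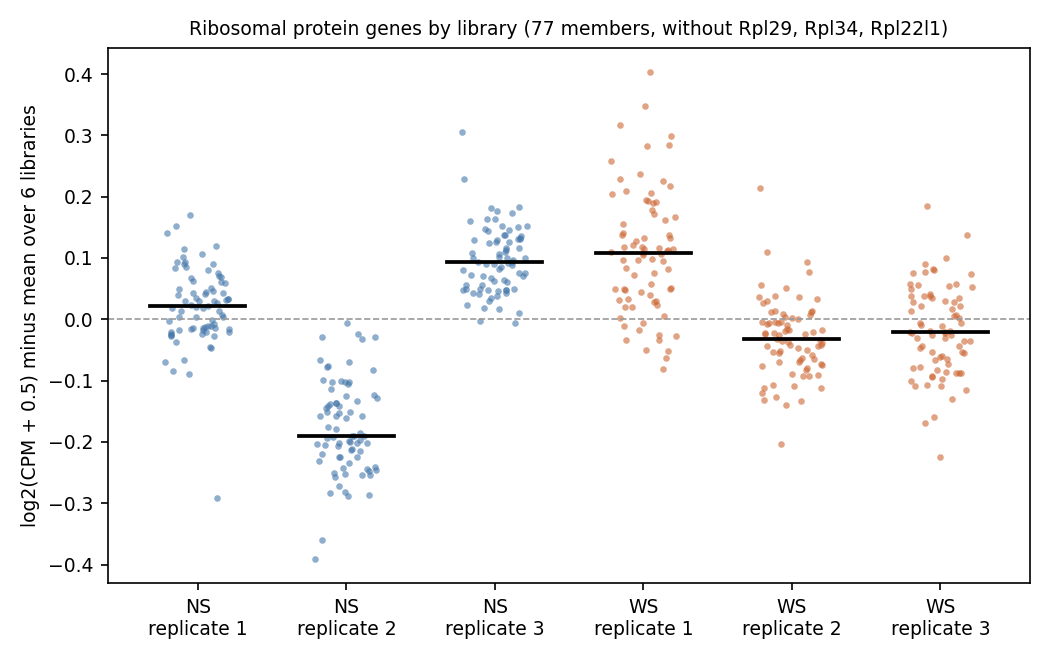
Deviation of each member from its own mean over the 6 libraries, on the log2(CPM + 0.5) scale, for the 77 members without Rpl29, Rpl34 and Rpl22l1 (1 point per gene, spread sideways only to separate points; black line, median; blue, NS; orange, WS). NS replicate 2 sits lowest, with a median of -0.19, and the difference between NS replicates 2 and 3 is wider than that between the groups.

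Other short transcripts moved in the same direction as the members in NS replicates 2 and 3 and WS replicate 1, and were also low in WS replicate 3, where the members were near 0. The 527 genes outside the family with at least 100 counts on average and a transcript under 1000 bases had median deviations of 0.0020, -0.10 and 0.09 in NS and 0.08, 0.0061 and -0.09 in WS, while the median over all 10876 genes of that coverage stayed between -0.0051 and 0.0068. In NS replicate 2 the 60 members under 1000 bases had a median of -0.19 and the 20 longer members one of -0.14. The 44 members with over 50% of windows shared and the 36 others both stood at -0.19 there. The part of transcript length in the library pattern was not tested.

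Genes that work with the ribosome gave the same absence of calls, with 0 at an unadjusted p under 0.05 by edgeR in each list. Since 0.866% (higher) and 0.327% (lower) of all tested genes were below that p, a count of 0 in lists of this size does not set them apart. Outside the rule for symbols, Fau (a ubiquitin-like fusion that releases a small subunit protein), Rack1 (a signalling scaffold of the small subunit) and Rpl36al had log2 fold changes of 0.04 (SE 0.10), 0.10 (SE 0.10) and -0.07 (SE 0.11), and all 3 were lowest in NS replicate 2, as most members were. Rsl24d1 and Rsl1d1, which carry ribosomal L24 and L1 domains, had log2 fold changes of -0.07 (SE 0.10) and -0.03 (SE 0.09), and were lowest in WS replicate 1 and WS replicate 3. Fau, for instance, stood at 112, 96.4 and 122 CPM in NS and 122, 106 and 112 CPM in WS. Of 25 ribosome biogenesis genes, 8 were above 0 and 17 below (median -0.03), and only 1, Wdr12, was lowest in NS replicate 2. The extremes were Fbl, the rRNA methyltransferase fibrillarin, at -0.17 (SE 0.10), and Gar1, of the snoRNPs that guide pseudouridylation, at 0.20 (SE 0.13).

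Of 14 genes comprising translation factors and others with TOP mRNAs, and Larp1, 11 were above 0 and 3 below (median log2 fold change 0.05), and 6 were lowest in NS replicate 2. Eef1a1, which delivers aminoacyl-tRNA, had a log2 fold change of 0.01 (SE 0.08), and Larp1 one of 0.12 (SE 0.08). Of 13 genes from mTOR to the S6 kinases, including Mtor, Rheb and Rps6kb1, 8 were above 0 and 5 below (median 0.02). The smallest p there was that of Eif4e, the cap-binding protein, at -0.12 (SE 0.09).

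The median SD of log2 CPM over the libraries was 0.126 for the members and 0.116 for all tested genes with at least 100 counts. Among the 80 members, 3 strayed, that is, had a library more than 0.5 on the log2(CPM + 0.5) scale from the median of the other 5. They were Rpl29, Rpl34 and Rpl22l1. Of all 13688 genes with at least 10 counts on average, 11.0% strayed, and of the 10876 with at least 100 counts, 3.97%, so that 3 of 80 members (3.75%) was near the share of genes of like coverage. Just inside the limit were Rplp1 (0.48, in WS replicate 1) and Rpl30 (0.45, in NS replicate 2).

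Rpl29, a heparin-binding protein of the large subunit that is dispensable for viability in mice, was either high or nearly absent. It had 1962, 57 and 82 counts in NS replicates 1 to 3 and 2490, 125 and 72 counts in WS replicates 1 to 3, or 124, 3.56 and 5.09 CPM and 148, 7.73 and 4.55 CPM. Replicate 1 of both groups was high, and the other 4 libraries were low. The high libraries lay 4.47 (NS) and 4.73 (WS) above the median of the other 5 on the log2 scale, and the highest library was 41.5 times the lowest. The groups overlapped, with a log2 fold change of 0.28 (SE 1.22). Blocking on the replicate number gave 0.36 (SE 0.15), which passed an unadjusted p under 0.05 in edgeR, with an adjusted p of 0.9999 (quasi-likelihood, Benjamini-Hochberg). Its sign turned to -0.27 without NS replicate 2, to -0.25 without NS replicate 3 and to -2.84 without WS replicate 1, and without NS replicate 1 it was 3.62.

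The genes whose log2 CPM followed Rpl29 most closely over the 6 libraries were Gdf10, Tmem43 and Kat5, with Pearson's r of 0.993 to 0.996, but their own range was narrow. Kat5, for instance, had 866, 808 and 822 counts in NS and 923, 838 and 803 in WS. The most opposite gene, picked after its values were seen, was Wdfy1, an endosomal protein (r = -0.9986). It had 206, 601 and 581 counts in NS and 218, 512 and 591 in WS, so that replicate 1 of both groups was low where Rpl29 was high. On the annotation, 66.6% of the Rpl29 windows were shared with other genes, none of which is listed in these data. Rpl29 lies at chr9:106429454-106431568 on the plus strand.

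**Figure D4:**
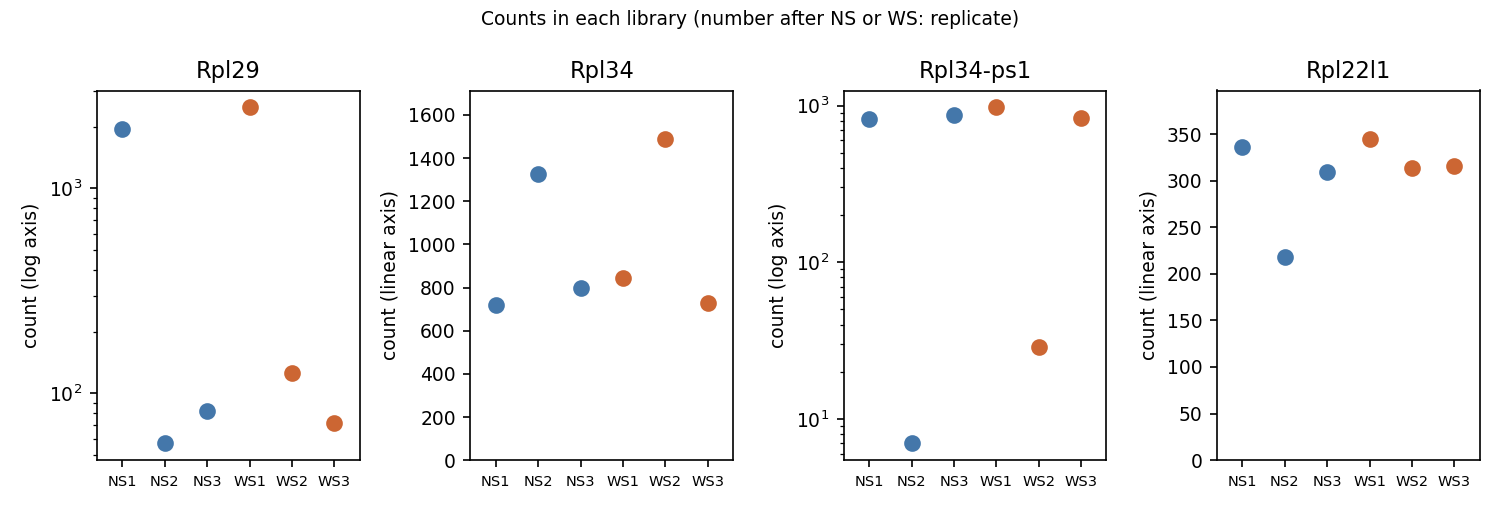
Counts of Rpl29, Rpl34, the pseudogene Rpl34-ps1 and Rpl22l1 in each library (blue, NS; orange, WS; the axes of Rpl29 and Rpl34-ps1 are logarithmic, the others linear from 0). Rpl29 is high in replicate 1 of both groups, Rpl34 is high and Rpl34-ps1 low in replicate 2 of both groups, and Rpl22l1 is low in NS replicate 2.

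Rpl34, a protein of the large subunit, strayed with another pair. It had 718, 1325 and 796 counts in NS and 843, 1490 and 730 counts in WS, so that replicate 2 of both groups was high, by 0.74 in NS and 0.89 in WS on the log2 scale. The log2 fold change was 0.09 (SE 0.26), and its sign turned to -0.07, -0.03 and -0.31 without NS replicate 1, NS replicate 3 and WS replicate 2. Rpl34-ps1, whose sequence differs from Rpl34 at the 2 bases shown above, went the other way, with 826, 7 and 865 counts in NS and 974, 29 and 838 in WS. It held 53.5%, 0.526% and 52.1% of the counts of both genes in NS and 53.6%, 1.91% and 53.4% in WS. The sum of the pair was even, at 97.3, 83.1 and 103 CPM in NS and 108, 94.0 and 99.0 CPM in WS, and like most members it was lowest in NS replicate 2. In replicate 2 of both groups the estimated counts thus lay almost wholly on Rpl34, and in the other 4 libraries they were split nearly evenly. Some Rpl34 values were not whole, and how reads were assigned between Rpl34 and Rpl34-ps1 is not known. Gm10154, which has no counts in these data, shared 83.3% of the Rpl34-ps1 windows and 38.7% of the Rpl34 windows.

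The genes most like Rpl34 over the 6 libraries were Bcdin3d, Ivd and Rrm2 (Pearson's r of 0.979 to 0.981). Rrm2, a subunit of ribonucleotide reductase, had 32, 58 and 40 counts in NS and 42, 64 and 38 in WS. The most opposite gene, again picked after its values were seen, was Pla2g4e, a phospholipase (r = -0.992). It had 494, 202 and 501 counts in NS and 538, 182 and 543 in WS.

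Rpl22l1 strayed by 1 library. It stood at 21.2, 13.6 and 19.2 CPM in NS and 20.4, 19.4 and 20 CPM in WS, with NS replicate 2 lower by 0.54 on the log2 scale than the median of the others. The log2 fold change was 0.15 (SE 0.14), and -0.02 without NS replicate 2. Its partner Rpl22 stood at 72.8 CPM in that library against 72.1 to 77.1 in the others, and so did not share the low value. Of the genes most like Rpl22l1 (Alox15, Gstt2 and Mrpl15, r of 0.972 to 0.983), only Mrpl15, a mitochondrial ribosomal protein, was well covered, with 457, 389 and 452 counts in NS and 471, 458 and 438 in WS.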

How the data were processed

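The authors sequenced total RNA of S1 cortex on the DNBseq platform, removed rRNA and low-quality reads and mapped with HISAT2 (mm10 per the labels). The counting tool is not given in the sources used here. The authors deposited, per gene, the mean over 6 libraries as an estimated count, its SD, and a z-score per library. FPKM values, named in the methods, were not used here. The authors also deposited their own fold changes and p-values, which were not used. The column for WS replicate 3 bears an added letter, and was taken as such since the authors' WS mean score includes it.

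Counts per library were computed back as mean plus z-score times SD and rounded. Of the values of 13418 genes with under 0.1 count of rounding uncertainty, 88.5% came back whole within that uncertainty. Rounding left at most 0.0703% of a member's mean. In 15 members some values were not whole, so their counts are estimates. No library pair agreed within sampling noise (lowest chi-square 4.49 per degree of freedom). edgeR 4.0.16 (TMM, filterByExpr, quasi-likelihood test, Benjamini-Hochberg over 13747 genes), DESeq2 1.42.0, R 4.3.3 and Python 3.11.15 were used. The scripts were tested on simulated data.

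After removal of group means, same-numbered libraries were correlated over 13688 genes (Pearson's r 0.34, 0.23 and 0.11, and -0.26 to 0.04 for other pairs). Removing the group means ties the deviations of the libraries in a group together, so the other pairs are no independent comparison. By the rule that every r exceeds 0.1, the numbers were taken to pair the libraries. The third r depended on the scale, at 0.13 with 0.1 CPM added before the log, 0.11 with 0.5, 0.075 with 2 and 0.044 with 5, so the pairing of replicate 3 is uncertain, and the study's description names a control side but not which libraries share a mouse. The main fit has no block, and the fit was repeated with the number as a block. The numbers come from the labels.

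Members, gene lists and tests were chosen with earlier results of these data known. Named are the stray members and their most similar genes, the 3 smallest p-values in each direction, the 3 highest and 3 lowest levels per length, paralogs with their partners, the stalk genes, Rpl5, Rpl11 and Rps6. Other genes are given as examples, chosen after their values were seen. Transcript lengths come from 1 representative GENCODE M21 transcript per gene. The values of a few single genes are not reported here.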

Additional observations from a re-analysis of the deposited data

How the results depend on the processing

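The count of members with an adjusted p under 0.05 was 0 under all alternatives run (RLE and upper-quartile normalization, no filter on low counts, DESeq2, the replicate block, unrounded counts, each library left out, and a log2 fold change above 1 as well). At an unadjusted p under 0.05 the count was 1 with the replicate block (Rpl29) and 0 to 2 when a library was left out (Rpl29 without NS replicate 1, Rpl29 and Rps6 without WS replicate 1). Over all genes, 8 had an adjusted p under 0.05 with DESeq2 and 11 with the replicate block, against 5, and leaving out a library gave 0 to 9, with 0 without NS replicate 2 or NS replicate 3. The block changed no other call on the members. The count of members above 0, an alternative added after seeing the data, was 20 to 75 when a library was left out. The median log2 fold change was then -0.031 to 0.096 and the difference in summed share -0.0365 to 0.0828 percentage points. Stray members numbered 22 at a distance of 0.3, 1 at a distance of 1 (Rpl29), and 2 to 4 when a library was left out. Leaving out libraries gave log2 fold changes from -2.84 to 3.62 for Rpl29, -0.31 to 0.41 for Rpl34 and -0.018 to 0.28 for Rpl22l1, the only ones to change sign among the 9 members tried (these 3, Rps6, Rpl14, Rpl13, Rpl39, Rps26 and Rpl15). The others were picked for the smallest p in each direction in the same data, which favours a sign that holds. The cause of these shifts was not tested. With 3 libraries per group, a single member carried a median standard error of 0.09 on the log2 scale, so a change of the size fitted for most members could not be told from the spread between libraries.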
